A study of Mus musculus with 22 samples.

Results

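The genes described here are 10 neuronal calcium-binding proteins of the mouse: the CaBP genes Cabp1, Cabp2, Cabp4, Cabp5 and Cabp7, the neuronal calcium sensors Ncald, Vsnl1 and Hpca, and the buffers Calb1 and Calb2. They were chosen by name, as the rows of the deposited expression table whose identifiers belong to these symbols. All 10 were found among the 13812 genes of the table, and all 10 passed the filter on low values. Messenger RNA was sequenced from cells sorted from the mouse retina at postnatal day 7, 13 or 30 (P7, P13, P30). The groups were bipolars, rods and cones at each of the 3 ages, with rod bipolars and cone bipolars at P13. There were 22 libraries, a pair for each of 11 groups. The labels give no strain, genotype, sex or treatment for any group, and the series' design text speaks of ON-bipolar cells where the labels say bipolars. Nor do they state whether a pair of libraries stems from different animals, and the p-values below therefore speak of library-to-library spread, which may be technical.

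Calcium-binding proteins of the EF-hand class take up calcium through a helix-loop-helix motif. CaBPs resemble calmodulin and bind calcium channels and inositol trisphosphate receptors, neuronal calcium sensors move to membranes when calcium rises, and calbindin and calretinin act chiefly as buffers. In the retina, rods and cones release glutamate continuously at ribbon synapses that depend on calcium entry through L-type channels, and bipolar cells carry this signal inward through ribbon synapses of their own. Antibodies against several of these proteins are in wide use to tell the cell types of the retina apart.

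RefSeq windows of 250 bases before an annotated start (GRCm38.p6) were given for 6 of the genes, 11 windows in all, and are shown for Cabp5 and Cabp2, the members with the highest levels per exon length in bipolars at P13 and P30. Capitals mark TAATCC or its reverse complement GGATTA, the core that the photoreceptor and bipolar homeodomain factors CRX and OTX2 are known to bind.
Cabp5, chr7:13397905-13398154, plus strand: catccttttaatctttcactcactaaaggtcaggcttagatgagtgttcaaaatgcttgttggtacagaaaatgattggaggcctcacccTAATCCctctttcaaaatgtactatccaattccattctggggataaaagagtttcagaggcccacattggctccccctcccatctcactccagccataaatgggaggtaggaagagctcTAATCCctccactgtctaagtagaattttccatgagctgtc
Cabp2, first start, chr19:4082238-4082487, plus strand: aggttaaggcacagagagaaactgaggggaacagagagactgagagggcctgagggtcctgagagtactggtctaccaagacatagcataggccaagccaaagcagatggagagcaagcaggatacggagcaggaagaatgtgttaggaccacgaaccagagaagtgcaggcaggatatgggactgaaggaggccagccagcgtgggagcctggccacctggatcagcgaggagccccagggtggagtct
Cabp2, second start, chr19:4083269-4083518, plus strand: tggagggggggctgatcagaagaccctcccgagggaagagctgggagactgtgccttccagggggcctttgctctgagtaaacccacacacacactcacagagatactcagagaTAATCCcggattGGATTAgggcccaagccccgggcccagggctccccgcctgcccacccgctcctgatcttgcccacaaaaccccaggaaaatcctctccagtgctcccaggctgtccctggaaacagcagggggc
The Cabp5 window held TAATCC with its first base 160 and 41 bases before the start. The first Cabp2 window held none, and the second held TAATCC at 136 bases and GGATTA at 124 bases before the start. Of the windows of the other genes (Hpca, Cabp1, Cabp7 and Vsnl1), 1 Hpca window had a match, at 66 bases. Such a match, on either strand, was present in 6.25% of the 32851 windows of this length. Also searched on both strands were CAGATG, present in 14.4% of windows, TGCTGA, in 16.1%, and TAATTA, in 4.84%. In the 3 windows shown, the only such match was CAGATG, at 147 bases in the first Cabp2 window, and it overlapped no other motif. These are matches of letters and not sites of binding.

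Library depth, in Mreads (megareads in genes), ran from 14.4 to 29.97 in bipolars, 17.9 to 27.4 in rod bipolars, 21.1 to 22.5 in cone bipolars, 31.4 to 54.4 in rods and 41.1 to 50.8 in cones. Levels are counts per Mread of scaled depth (CPM), and scaled depth was 0.608 to 1.23 of the reads in genes. Among bipolars, rods and cones, summed levels of defining markers were highest in the cell type they mark. The 6 ON-bipolar markers summed to 4279 to 6568 CPM in bipolars, 7.48 to 289 CPM in cones and 2.70 to 22.6 CPM in rods. The 6 rod markers summed to 8924 to 18652 CPM in rods, and the 6 cone markers to 15501 to 47019 CPM in cones. The 4 rod bipolar markers summed to 7317 and 8764 CPM in rod bipolars, to 438 and 304 CPM in cone bipolars and to 643 and 870.1 CPM in cones at P30. The OFF-bipolar markers Grik1, Tacr3 and Fezf2 summed to 256 to 773 CPM in bipolars, 238 and 245 CPM in rod bipolars and 145 and 128 CPM in cone bipolars. Markers of Müller glia reached 3987 and 6163 CPM in bipolars at P30, against at most 877 CPM in bipolars at P7 and P13. In sorted bulk samples, fewer cells of a type and less RNA per cell cannot be told apart.

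**Figure D1:**
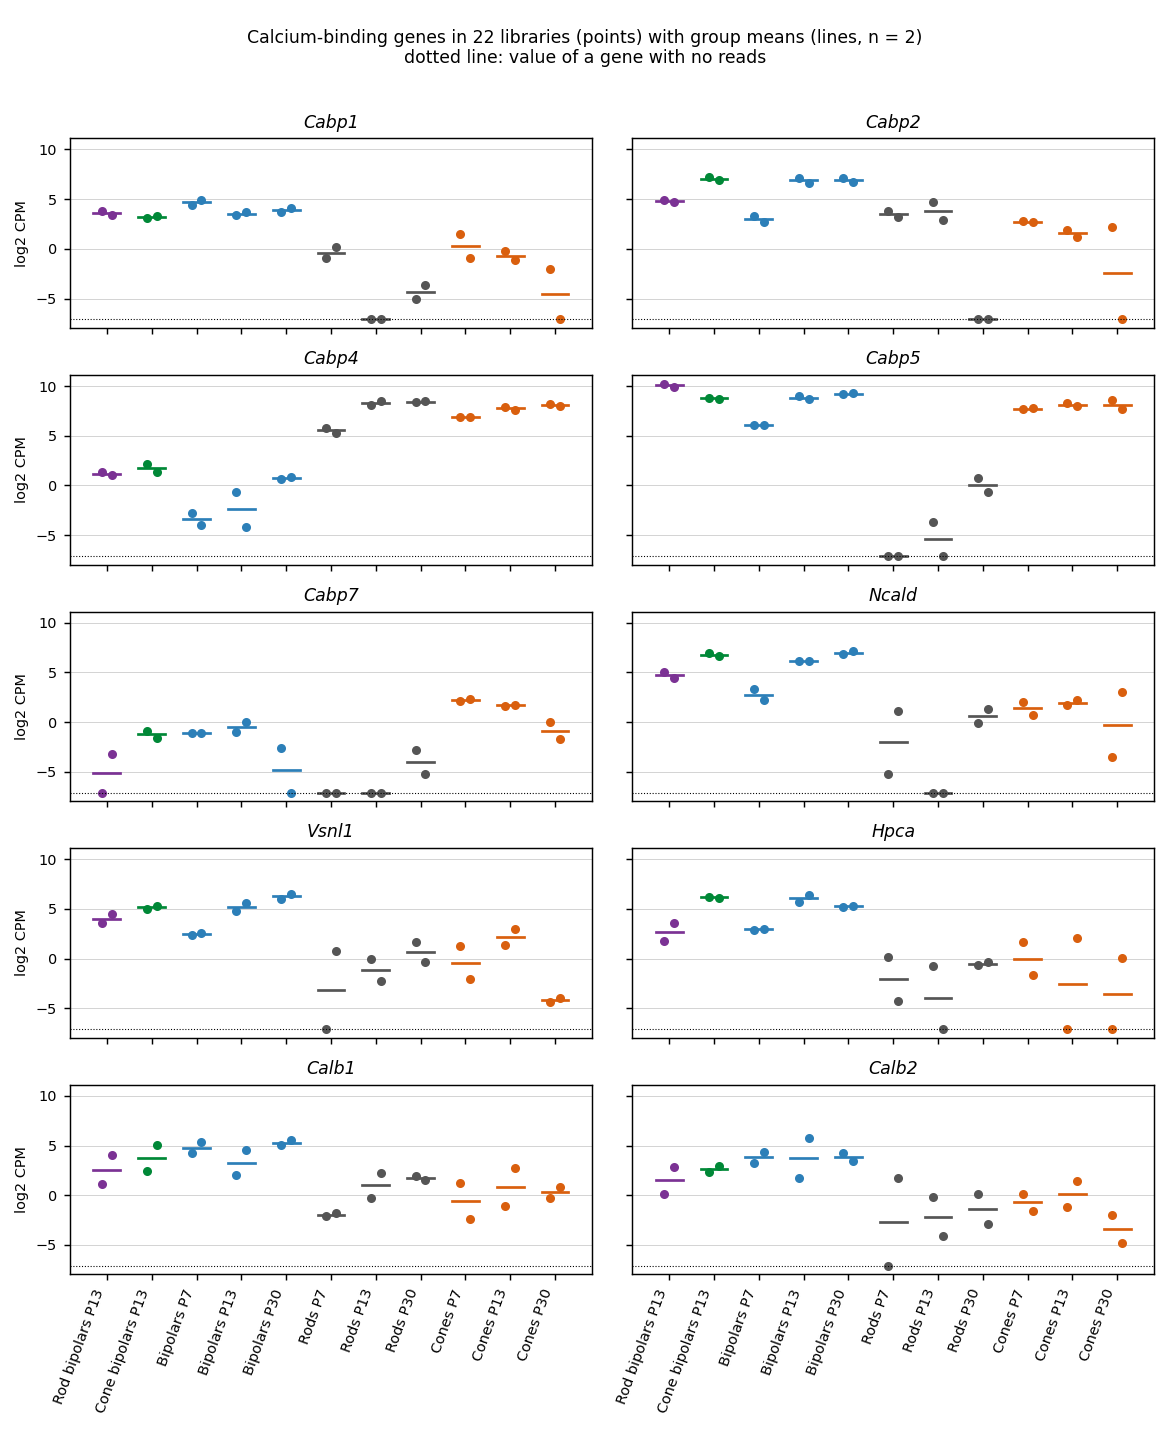
Deposited log2 CPM of the 10 genes (y axis) in the 22 libraries (points) of the 11 groups (x axis), with group means as lines and the value of a gene without reads as a dotted line. Cabp4 is high in rods and cones, Cabp5 in all groups but rods, and most other members in bipolar groups.

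The 10 genes fell into a few patterns, as the plot of levels by library shows. Cabp4 was a gene of rods and cones. Cabp5 was present in bipolar groups and in cones and almost absent from rods. Cabp1, Cabp2, Ncald, Vsnl1, Hpca, Calb1 and Calb2 had their highest group mean in a bipolar group. Cabp7 was low throughout, with its highest level in cones at P7. Levels of different genes were compared as CPM per kilobase of exon. On that scale Cabp5 led the members in every bipolar and cone group, from 26.7 in bipolars at P7 to 428 in rod bipolars. Cabp4 led them in rods, at 13.5, 89.6 and 98.3 at P7, P13 and P30.

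Cell types were compared at each age with limma over all genes, and a gene was called where its adjusted p was under 0.05 and its groups differed by 1 or more on the log2 scale. In bipolars against rods, 7 members were called at P7, 6 higher and 1 lower, where 28.4% of all genes tested were called in either direction. At P13, 8 were called, 7 higher and 1 lower, against 40.3% of all genes. At P30, 6 were called, 5 higher and 1 lower, against 37.7%. The median log2 fold change of the members was 5.34, 6.46 and 5.67 at P7, P13 and P30, and that of all genes tested 0.19, 0.27 and 0.07. At each age the share of members called was above that of all genes, and the gene called lower was Cabp4 each time. Cabp7, among those called higher at P7 and P13, passed the filter on low values through cones alone.

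In bipolars against cones, 3 members were called at P7, 2 higher and 1 lower, against 15.6% of all genes tested. At P13, 4 were called, 3 higher and 1 lower, against 22.2%. At P30, 8 were called, 7 higher and 1 lower, against 30.4%. Cabp4 was again the only gene called lower. The median member differed by 2.11, 3.32 and 7.25 on the log2 scale at P7, P13 and P30, and the median of all genes by 0.01, 0.08 and 0.14. In rods against cones, 2, 4 and 1 members were called at P7, P13 and P30, all of them lower, against 12.8%, 21.2% and 20.0% of all genes, so that at P30 the share of members was below the background. Of the 4 at P13, Cabp1 passed the filter on low values through bipolar groups alone. The median member differed by -2.01, -2.79 and 0.60 on the log2 scale, and the median of all genes by -0.16, -0.11 and 0.14. Of members higher in rods than in cones, only Vsnl1 at P30 had an unadjusted p under 0.05 in limma, and limma with voom weights on the reads recovered from the table called none. Cabp2 was called higher in rods at P13 on the log2(CPM + 1) scale (1.98, adjusted p = 0.0234) and Vsnl1 at P30 with plain read totals (5.35, 0.0336). The voom alternative was chosen after seeing the data and is called voom weights from here on. Bipolars against rods and bipolars against cones share the bipolar libraries.

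**Figure D2:**
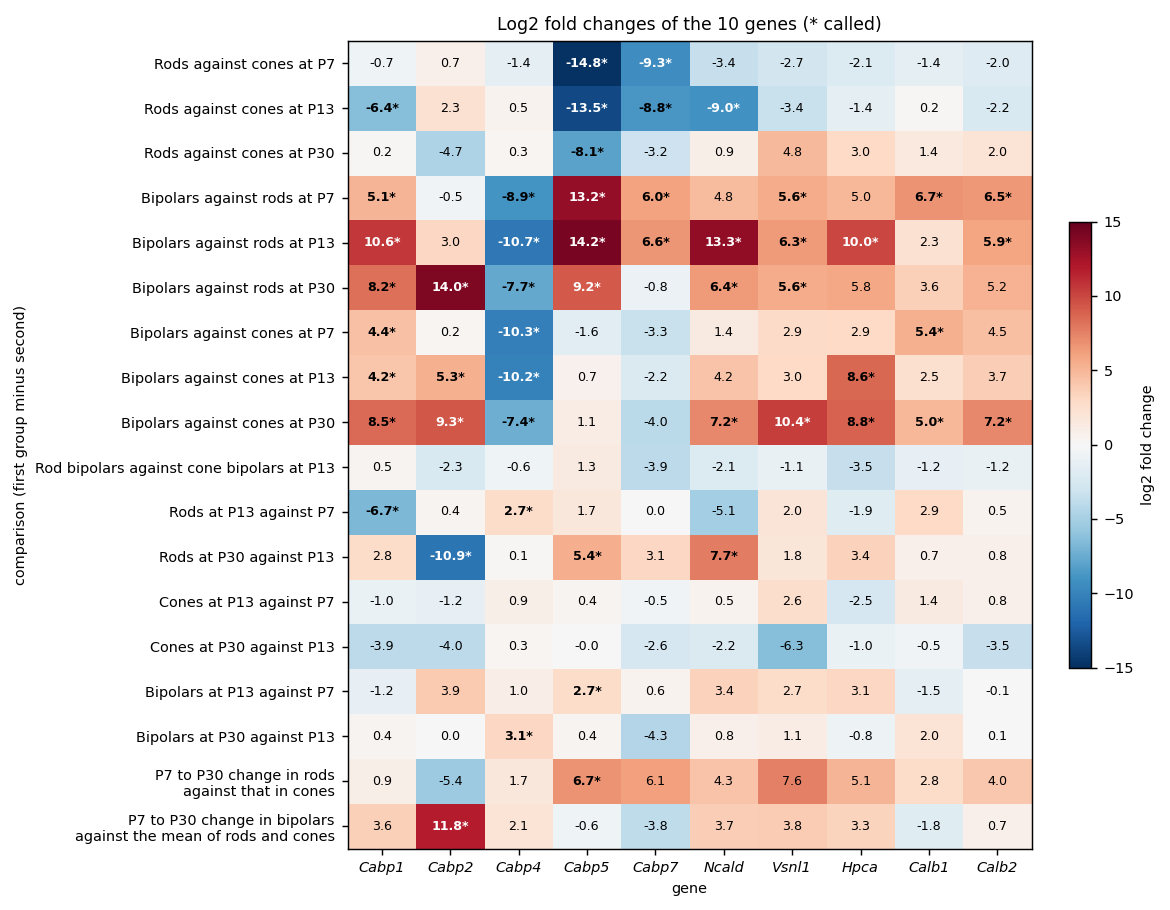
Log2 fold changes (colour and printed value, first group minus second) of the 10 genes (x axis) in the 18 comparisons (y axis), with called values in bold and starred. Cabp4 is called lower in bipolars than in rods and cones at every age, and Cabp5 lower in rods than in cones and higher in bipolars than in rods at every age.

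Cabp4 (ENSMUSG00000024842, chr19:4135423-4144033, minus strand, GRCm38) binds the channel Cav1.4 at photoreceptor terminals and is required for normal transmission from rods and cones. Bipolars had 0.140 and 0.0565 CPM at P7, 0.630 and 0.0485 CPM at P13, and 1.52 and 1.82 CPM at P30. Rods had 55.1 and 40.0 CPM at P7, 270.1 and 360.3 CPM at P13, and 340.0 and 352 CPM at P30. Cones had 121 and 122 CPM at P7, 245 and 195 CPM at P13, and 297 and 257 CPM at P30. Every rod and cone library lay above every bipolar library of any kind, since rod bipolars had 2.49 and 2.02 CPM and cone bipolars 4.60 and 2.54 CPM. The P7 level in bipolars rested on 4 reads in both libraries together.

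Cabp4 was lower in bipolars than in rods by 8.92 ± 0.76 on the log2 scale at P7 (SE; limma, adjusted p = 3.38e-07), which is 485-fold by mean CPM. The difference from rods was -10.69 ± 0.76 at P13 and -7.69 ± 0.76 at P30, and that from cones -10.29 ± 0.76, -10.18 ± 0.76 and -7.37 ± 0.76 at P7, P13 and P30 (limma, adjusted p at most 3.99e-06). Between rods and cones the log2 difference was -1.37 ± 0.76, 0.51 ± 0.76 and 0.32 ± 0.76 at P7, P13 and P30, and none of the 3 was called. The rod libraries lay below the cone libraries at P7 and above them at P13 and P30. The P7 difference was called by limma with voom weights (adjusted p = 1.61e-04), on the log2(CPM + 1) scale (0.00541) and with only the groups compared (0.0212). It was not called with plain read totals, array weights or the replicate block, or without the filter or the trend. In order of level, the libraries of rods at P13 overlapped both those of rods at P30 above and those of cones at P30 below, and cones at P13, cones at P7, rods at P7, cone bipolars, rod bipolars and bipolars at P30 followed, each apart from the next. The rod markers summed to 514 and 313 CPM in cone bipolars, 444 and 264 CPM in rod bipolars and 198 and 191 CPM in bipolars at P30. The cone markers summed to 167 and 191 CPM, 71.3 and 60.6 CPM, and 385 and 397 CPM in the same groups. The part of photoreceptor RNA in the Cabp4 level of the bipolar groups was not tested. Exons of Gpr152 on the opposite strand share 131 bases with Cabp4, 3.72% of its exon length, and the library kit does not mark strand.

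Cabp5 (ENSMUSG00000005649, chr7:13398132-13408887, plus strand), the CaBP known from rod bipolar cells and some types of cone bipolar cell, led the members in bipolar and cone groups. Rod bipolars had 1207 and 952 CPM and cone bipolars 452 and 417 CPM. Bipolars had 65.8 and 69.1 CPM at P7, 497 and 404 CPM at P13, and 569 and 640.0 CPM at P30. Rods had no read in either library at P7, 0.0703 CPM and none at P13, and 1.63 and 0.632 CPM at P30. Rods stood apart from all other groups, with 2 reads of this gene at P13 and 106 at P30. Cones had 205 and 217 CPM at P7, 304 and 262 CPM at P13, and 376 and 205 CPM at P30.

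Bipolars at P7 had at least 2146-fold more Cabp5 than rods, with the floor set at 3 reads over the group, and rods at P7 at least 6712-fold less than cones. At P30 the fold by mean CPM was 535 for bipolars over rods, and the log2 difference was 9.20 ± 0.72 (limma, adjusted p = 8.90e-08). Rods were lower than cones by 8.08 ± 0.72 on the log2 scale at P30 (adjusted p = 1.11e-06), 257-fold by mean CPM. All 6 Cabp5 comparisons with rods, against bipolars and against cones, were called at each age. Bipolars and cones were not separated by the test: the log2 difference was -1.64 ± 0.72, 0.67 ± 0.72 and 1.12 ± 0.72 at P7, P13 and P30, with adjusted p of 0.129, 0.543 and 0.241. The bipolar libraries lay below the cone libraries at P7 and above them at P13 and P30. With voom weights on recovered reads limma called the P7 difference (adjusted p = 2.90e-04) and the P30 difference (3.28e-04). Limma also called both on the log2(CPM + 1) scale (1.22e-04 and 0.00238). The P7 difference was called with only the groups compared (3.05e-04) and with array weights (1.39e-04) too. It was not called with plain read totals or the replicate block, or without the filter or the trend. With plain read totals in place of scaled depth, limma gave 1.85 at P30 and called it (adjusted p = 0.0396).

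Cabp2 (ENSMUSG00000024857, chr19:4081578-4087340, plus strand) is known from hair cells of the ear, where it limits inactivation of calcium channels, and from bipolar cells. Bipolars had 9.96 and 6.39 CPM at P7, 139.8 and 101 CPM at P13, and 139.0 and 104 CPM at P30. Rods had 13.6 and 9.23 CPM at P7, 27.0 and 7.65 CPM at P13, and no read in either library at P30. Cones had 6.93 and 6.49 CPM at P7, 3.69 and 2.32 CPM at P13, and 4.72 CPM and none at P30. At P7 the 3 cell types lay within a narrow range, while at P13 and P30 every bipolar library exceeded every rod and cone library. Rod bipolars had 29.7 and 25.5 CPM and cone bipolars 148 and 122 CPM.

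At P30 bipolars had at least 3963-fold more Cabp2 than rods (limma, adjusted p = 1.71e-05) and 51.4-fold more than cones by mean CPM, a log2 difference of 9.34 ± 1.79 (adjusted p = 9.83e-04). Cone replicate 2 at P30 had no read, and the difference was 14.01 without cone replicate 1 and 4.67 without cone replicate 2, called both times. Rods against cones at P30 gave -4.67 ± 1.79 (adjusted p = 0.0707), and -9.34 without cone replicate 2 (2.46e-07). At P13 the difference from cones was 5.34 ± 1.79 (adjusted p = 0.0382), a call lost without any 1 of the 4 libraries (adjusted p 0.101 to 0.147). The difference of 3.05 ± 1.79 from rods at P13 was not called (adjusted p = 0.177). It was called with voom weights (4.10e-05), on the log2(CPM + 1) scale (6.91e-04) and with only the groups compared (0.0466). With plain read totals, array weights or the replicate block, or without the filter or the trend, it was not.

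Cabp1 (ENSMUSG00000029544, chr5:115168689-115194381, minus strand) encodes CaBP1 and its long neuronal form caldendrin, which bind calcium channels and inositol trisphosphate receptors. Bipolars had 21.9 and 30.7 CPM at P7, 10.2 and 12.7 CPM at P13, and 13.4 and 16.7 CPM at P30. Rods had 0.521 and 1.10 CPM at P7, no read at P13, and 0.0226 and 0.0744 CPM at P30. Cones had 2.91 and 0.523 CPM at P7, 0.835 and 0.459 CPM at P13, and 0.240 CPM and none at P30. All bipolar libraries lay above all rod and cone libraries, and Cabp1 was the only member with its highest mean in bipolars at P7. Rod bipolars, at 14.0 and 10.9 CPM, and cone bipolars, at 8.46 and 9.59 CPM, were close to bipolars. Rods were called lower than cones at P13 (-6.43 ± 1.39 on the log2 scale, limma, adjusted p = 0.00340). No rod or cone group passed the filter for Cabp1, so it was tested there through bipolar groups alone. The value was -0.71 on the log2(CPM + 1) scale and was not called.

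Cabp1 was called higher in bipolars than in rods and cones at all 3 ages. Against rods it was 32.5-fold higher at P7 by mean CPM (log2 difference 5.09 ± 1.39, limma, adjusted p = 0.0108), at least 261-fold higher at P13, and 311-fold higher at P30. Against cones it was 15.3-fold higher at P7 (adjusted p = 0.0372), 17.7-fold at P13 (0.0369) and 126-fold at P30 (2.88e-04). The P13 call against cones was lost without any 1 of the 4 libraries (adjusted p 0.0799 to 0.161), the P7 call against cones without either bipolar library or cone replicate 2 (0.133 to 0.298), and the P7 call against rods without rod replicate 1 or bipolar replicate 2 (0.0676 and 0.0758).

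Cabp7 (ENSMUSG00000009075, chr11:4736892-4746778, minus strand), also called calneuron 2, is a membrane-anchored CaBP known from the Golgi apparatus. It reached no more than 4.88 CPM in any library. Bipolars had 0.465 and 0.452 CPM at P7, 0.485 and 0.970 CPM at P13, and 0.152 CPM and none at P30. Rods had no read at P7 or P13, and 0.136 and 0.0186 CPM at P30. Cones had 4.21 and 4.88 CPM at P7, 3.06 and 3.31 CPM at P13, and 0.961 and 0.294 CPM at P30. The cone libraries at P7 and P13 lay above all libraries of other cell types. Rods were at least 145-fold lower than cones at P7 (limma, adjusted p = 9.99e-04) and at least 72.5-fold lower at P13 (0.00103). Bipolars were at least 14.6-fold higher than rods at P7 and 16.5-fold at P13, on 18 and 30 reads in the bipolar libraries, and the P7 call was lost without either of these libraries (adjusted p = 0.0537 and 0.0534). Cabp7 passed the filter through cones at P7 and P13 alone, and no bipolar or rod group reached it. With only bipolars and rods in the fit the gene was therefore not tested. On the log2(CPM + 1) scale the differences of bipolars from rods were 0.54 and 0.77 and were not called. With array weights the P13 call was lost as well (0.0589), as was that of rods against cones at P13 (0.0544). Exons of Zmat5 on the opposite strand cover 12.9% of the exon length of Cabp7, and reads of these genes cannot be told apart there.

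Ncald (ENSMUSG00000051359, chr15:37366175-37792570, minus strand) encodes neurocalcin delta, a myristoylated sensor that is known to act on guanylate cyclases. Bipolars had 9.87 and 4.63 CPM at P7, 71.6 and 72.2 CPM at P13, and 112 and 144 CPM at P30. Rods had 0.0201 and 2.17 CPM at P7, no read at P13, and 0.951 and 2.45 CPM at P30. Cones had 4.14 and 1.66 CPM at P7, 3.18 and 4.61 CPM at P13, and 0.0801 and 8.01 CPM at P30. Bipolars exceeded rods and cones at every age, by a margin that was wider at P13 and P30 than at P7, and the 2 cone libraries at P30 lay far apart. Against rods the difference of 4.79 ± 1.79 at P7 was not called (adjusted p = 0.0509), although it was with voom weights (0.0333), plain totals (0.0452), array weights (0.00818) and on the log2(CPM + 1) scale (0.0303). It was at least 1635-fold at P13 (limma, adjusted p = 2.68e-05) and 75.1-fold at P30 by mean CPM (0.00975), a call lost without rod replicate 1 (0.0660) or bipolar replicate 2 (0.0561). Against cones it was 31.6-fold at P30 (log2 difference 7.24 ± 1.79, adjusted p = 0.00554) and 3.98 on the log2 scale without cone replicate 1 (adjusted p = 0.0936). At P13 the difference of 4.23 ± 1.79 from cones was not called (adjusted p = 0.0959). It was called with voom weights (4.96e-04), on the log2(CPM + 1) scale (3.85e-04), with only the groups compared (0.00220) and with array weights (0.0135). With plain totals or the replicate block, or without the filter or the trend, it was not. Rods were at least 88.6-fold lower than cones at P13 (adjusted p = 0.00179). The ON-bipolar markers summed to 40.3 and 113 CPM in cones at P13 and to 9.14 and 8.73 CPM in rods at P13. The part of bipolar RNA in this difference was not tested. Exons of Gm28221 on the opposite strand share 4.04% of the exon length of Ncald and those of Gm49397 on the same strand 3.33%.

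Vsnl1 (ENSMUSG00000054459, chr12:11325242-11436613, minus strand) encodes visinin-like protein, a sensor of brain neurons. Bipolars had 5.12 and 5.82 CPM at P7, 27.3 and 48.1 CPM at P13, and 64.3 and 90.4 CPM at P30. Rods had no read and 1.73 CPM at P7, 0.949 and 0.201 CPM at P13, and 3.19 and 0.799 CPM at P30. Cones had 2.35 and 0.234 CPM at P7, 2.67 and 7.77 CPM at P13, and 0.0400 and 0.0589 CPM at P30. Bipolars lay above rods and cones at each age, and cones at P30 held 3 reads of the gene in all. The difference from cones at P30 was 10.41 ± 1.80 on the log2 scale (limma, adjusted p = 4.35e-04). That from rods was called at each age, at 5.60 ± 1.80, 6.34 ± 1.80 and 5.57 ± 1.80 (adjusted p = 0.0255, 0.00960 and 0.0210 at P7, P13 and P30). The P7 value rested on the rod library without a read, since it was 1.65 without that library (rod replicate 1, adjusted p = 0.412) and 9.55 without rod replicate 2. The P7 call was also lost without either bipolar library, the P13 call without rod or bipolar replicate 2, and the P30 call without rod replicate 2 or either bipolar library (adjusted p 0.0621 to 0.136).

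Hpca (ENSMUSG00000028785, chr4:129111570-129122036, minus strand) encodes hippocalcin, a sensor best known from hippocampal neurons. Bipolars had 7.26 and 8.14 CPM at P7, 53.2 and 83.3 CPM at P13, and 37.2 and 40.0 CPM at P30. Rods ranged from no read to 1.12 CPM over 6 libraries and cones from no read to 4.08 CPM over 6 libraries. All bipolar libraries were above all rod and cone libraries, and 3 of the 12 rod and cone libraries had no read. The standard error of Hpca, 2.73 on the log2 scale, was the largest of the 10 genes. The gene was called higher in bipolars than in rods at P13 (229-fold by mean CPM, limma, adjusted p = 0.00766) and than in cones at P13 (33.5-fold, 0.0296) and P30 (74.9-fold, 0.0204). It was not called against rods at P30 (adjusted p = 0.0989), although voom weights gave 0.00348 there. Hpca was also called there on the log2(CPM + 1) scale (3.88e-05), with only the groups compared (0.00190) and with array weights (0.0288). With plain totals or the replicate block, or without the filter or the trend, it was not. Against cones the log2 difference of 8.59 at P13 was 4.03 without cone replicate 1 (adjusted p = 0.356) and 13.16 without cone replicate 2, and that of 8.79 at P30 was 5.22 without cone replicate 1 (0.230). Both of these calls were also lost without either bipolar library (adjusted p 0.0748 to 0.135). The difference from rods at P13 was 6.78 without rod replicate 2 (adjusted p = 0.09999).

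Calb1 (ENSMUSG00000028222, chr4:15881264-15908064, plus strand) encodes calbindin, a buffer used as a marker of horizontal cells and of some amacrine and ganglion cells of the mouse. Bipolars had 19.4 and 39.7 CPM at P7, 3.98 and 23.4 CPM at P13, and 32.9 and 45.5 CPM at P30. Rods ranged from 0.221 to 4.85 CPM and cones from 0.180 to 6.55 CPM over 6 libraries each. The bipolar libraries lay above all rod and cone libraries at P7 and P30, but 1 of the 2 at P13 did not. Calb1 was called higher in bipolars at P7 against rods (117-fold by mean CPM, log2 difference 6.75 ± 1.51, limma, adjusted p = 0.00283) and against cones (22.9-fold, 0.0198), and at P30 against cones (30.1-fold, 0.0182). Both calls against cones were lost when a bipolar library of that age was left out (adjusted p 0.0593 to 0.144), and also without cone replicate 2 at P7 (0.241) or cone replicate 1 at P30 (0.0957).

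Calb2 (ENSMUSG00000003657, chr8:110137502-110168210, minus strand) encodes calretinin, a buffer of amacrine and ganglion cells. Bipolars had 9.45 and 20.3 CPM at P7, 3.39 and 52.5 CPM at P13, and 19.5 and 10.8 CPM at P30. Rods ranged from no read to 3.398 CPM and cones from 0.0294 to 2.63 CPM over 6 libraries each. The 2 bipolar libraries at P13 lay on either side of those at P7 and P30. Calb2 was called higher in bipolars than in rods at P7 (6.46 ± 2.34 on the log2 scale, limma, adjusted p = 0.0444) and P13 (5.89 ± 2.34, 0.04999), and than in cones at P30 (7.25 ± 2.34, 0.0245). The P7 value was 2.03 without rod replicate 1 (adjusted p = 0.544) and 10.90 without rod replicate 2, its call was also lost without either bipolar library (0.112 and 0.184), and the P13 value was 3.91 without bipolar replicate 2 (0.311) and 3.92 without rod replicate 2 (0.293). The P13 call was lost in 7 of the 12 alternatives, these 2 included. The P30 call was lost without either bipolar library or cone replicate 2 (adjusted p 0.0796 to 0.125).

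Markers of amacrine cells were higher in bipolars too. Their sum over the 7 measured of the 8 listed genes was 134 to 653 CPM in bipolars, 50.7 and 220.3 CPM in rod bipolars, 69.6 and 164 CPM in cone bipolars, 10.2 to 27.5 CPM in rods and 15.2 to 108 CPM in cones. None of the 7 was at 0 in a bipolar library, and Slc32a1, Tfap2a, Tfap2b, Gad1 or Gad2 was at 0 in 7 of the other libraries. In 10 of the 11 groups the library with more Calb1 was also the one with more of the amacrine sum, and so it was in 7 of 11 groups for Calb2, 9 of 11 for Vsnl1 and 8 of 11 for Hpca. For Cabp1 and Ncald it was so in 7 of the 10 groups whose libraries differed, for Cabp5 in 2 of 10 and for Cabp2 in 1 of 10. Other marker sums gave like counts for the buffers: for Calb1, 9 of 11 groups with Müller glia, 8 with horizontal cell and 7 with ganglion cell markers, and for Calb2, 8 with ganglion cell, 7 with horizontal cell and 6 with Müller glia markers. With rod, cone and ON-bipolar markers the counts were 4, 7 and 4 of 11 for Calb1 and 3, 6 and 7 of 11 for Calb2. Replicate order bears on all these counts. The amacrine sum was higher in replicate 2 in every group but cones at P7. Calb1 was higher in replicate 2 in every group but rods at P30 and cones at P7. Cabp2 was higher in replicate 1 in every group with reads of it. The counts therefore partly restate replicate order, and the same counts over all genes were not computed. The part of RNA from other cell types in the levels of the members was not tested. The 3 measured markers of horizontal cells, Onecut2, Ret and Sept4, summed to 106 to 234 CPM in bipolars, 50.2 to 136 CPM in rods and 91.7 to 134 CPM in cones, and the 7 ganglion cell markers to 8.19 to 108 CPM in bipolars.

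**Figure D3:**
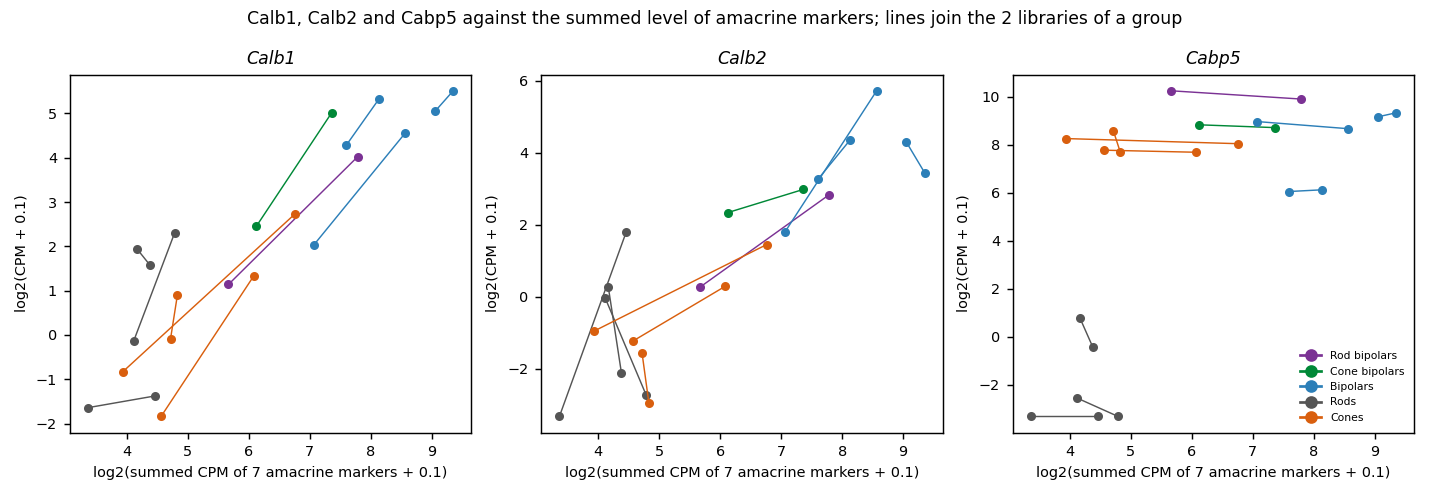
Level of Calb1, Calb2 and Cabp5 (y axis, log2 of CPM plus 0.1) against the summed level of 7 amacrine markers (x axis, same scale) in 22 libraries, with lines joining the 2 libraries of a group. Most Calb1 lines slope upwards, and most Cabp5 lines are flat or slope downwards.

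Rod bipolars and cone bipolars were compared at P13, the age at which both were collected. Cabp5 was higher in rod bipolars by mean CPM (2.48-fold, log2 difference 1.30 ± 0.72). Cabp2 was lower in rod bipolars (-2.29 ± 1.79), as were Ncald (-2.08 ± 1.79) and Hpca (-3.50 ± 2.73). Ncald had 32.2 and 21.0 CPM in rod bipolars and 119.6 and 101 CPM in cone bipolars, and Hpca 3.30 and 12.2 CPM in rod bipolars and 73.0 and 70.5 CPM in cone bipolars. None of the 10 genes was called by limma over all 22 libraries, where 4.68% of all genes tested were called in either direction, and only Cabp7 had an unadjusted p under 0.05. The libraries of the 2 subtypes overlapped for Calb1 and Calb2. For the other members they lay apart, but the share of all genes with libraries apart was not computed.

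That fit gives each gene 1 spread for all groups, including rods and cones with few or no reads. With only the 4 libraries of the subtypes, limma called Cabp2 (adjusted p = 0.00145), Ncald (0.00493), Cabp5 (0.00648) and Hpca (0.0144), and voom weights called the same 4 genes (Cabp2 0.00151, Ncald 0.00362, Cabp5 1.89e-04, Hpca 0.0143). Vsnl1, at 11.9 and 22.04 CPM in rod bipolars and 31.8 and 40.0 CPM in cone bipolars, and Cabp1 were called in neither. The shares of all genes called in these alternative fits are not given here, so these calls have no background beside them. Calb1 differed more within each group than between them, with 2.10 and 16.1 CPM in rod bipolars and 5.38 and 32.3 CPM in cone bipolars. Calb2 had 1.10 and 7.01 CPM in rod bipolars and 4.95 and 7.78 CPM in cone bipolars. In both subtypes replicate 2 had the higher level of each buffer and the higher amacrine sum.

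**Figure D4:**
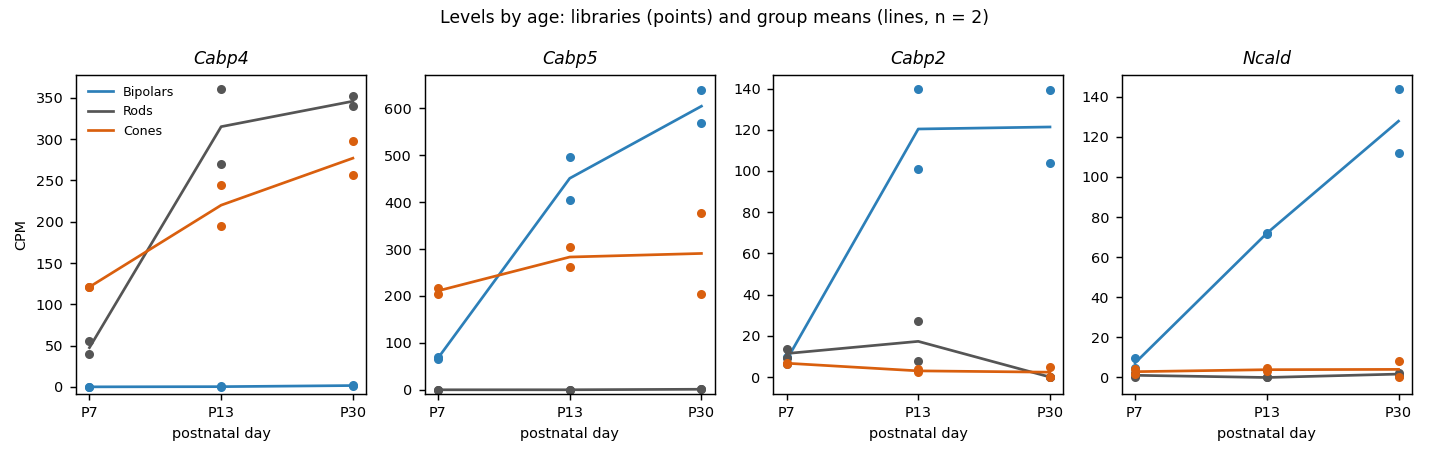
CPM (y axis) of Cabp4, Cabp5, Cabp2 and Ncald at P7, P13 and P30 (x axis) in bipolars, rods and cones, as libraries (points) and group means (lines, n = 2). Cabp4 climbs in rods and Cabp5 in bipolars between P7 and P13, and Cabp2 in rods is at 0 by P30.

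Across ages, changes called within a cell type were few. In rods, Cabp4 rose to a mean of 315 CPM at P13, against 47.5 CPM at P7 (6.63-fold, log2 difference 2.73 ± 0.76, limma, adjusted p = 0.0233), and Cabp1 fell to no read, against 0.809 CPM (at least 18.4-fold lower, 0.00447). The Cabp1 call was lost on the log2(CPM + 1) scale (-0.84, adjusted p = 0.229) and with array weights (0.0991). Rods passed the filter for Cabp1 at neither age, and the gene was tested through bipolar groups. These 2 of the 10 members stand beside 12.6% of all genes called for that step. The Cabp4 call was lost without either P7 library or P13 replicate 2 (adjusted p 0.0547 to 0.128), and its 4 libraries did not overlap. From P13 to P30, 3 members were called, against 12.0% of all genes. Cabp2 fell to no read in rods at P30, at least 566-fold below P13 (adjusted p = 9.34e-04). Ncald rose to 1.70 CPM, at least 38.7-fold above P13 (0.00919, and 0.0624 without P30 replicate 2), and Cabp5 to 1.13 CPM at P30, against 2 reads at P13 (1.86e-04, and 0.0887 with voom weights). Rods passed the filter for Ncald and Cabp5 at neither P13 nor P30, and these genes were tested through other groups. The ON-bipolar markers in rods summed to 7.38 and 2.70 CPM at P30 and 9.14 and 8.73 CPM at P13. Among them Grm6, the glutamate receptor of ON-bipolar cells, was at 0 in all 6 rod libraries. Gng13 was at 0 in the rod libraries at P7 and P13 and had reads in those at P30. The cone bipolar markers Scgn, Vsx1, Grik1 and Lhx3 in rods summed to 3.67 and 5.13 CPM at P30 and 1.90 and 0.352 CPM at P13. The cone markers in rods summed to 125 and 90.7 CPM at P30 and 23.5 and 114 CPM at P13. The part of RNA from other cells in these changes was not tested.

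In cones limma called no member for P13 against P7, where 0.440% of all genes were called and no member had an unadjusted p under 0.05. None was called for P30 against P13 either, where 3.20% of genes were called and Cabp1, Cabp2 and Vsnl1 had an unadjusted p under 0.05. With voom weights no member was called in either step. In bipolars 1 member was called in each step, against 2.98% of all genes for P13 against P7 and 1.86% for P30 against P13. Cabp5 rose to a mean of 451 CPM at P13, against 67.4 CPM at P7 (6.68-fold, log2 difference 2.73 ± 0.72, adjusted p = 0.0465), and the call was lost without any 1 of the 4 libraries (0.213 to 0.251). Cabp4 rose to 1.67 CPM at P30, against 0.339 CPM at P13 (3.15 ± 0.76, adjusted p = 0.0404), and the difference was 1.39 without P13 replicate 2 (0.422) and 4.91 without P13 replicate 1. That call was also lost without either P30 library. The cone markers in bipolars summed to 385 and 397 CPM at P30 and 113 and 126 CPM at P13. The rod markers in bipolars summed to 198 and 191 CPM at P30 and 91.9 and 85.6 CPM at P13. The part of photoreceptor RNA in the Cabp4 level of bipolars was not tested.

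Cabp2, Ncald, Vsnl1 and Hpca also had both bipolar libraries at P13 above both at P7, by 14.7, 9.92, 6.89 and 8.87-fold of the means, without a call in the fit over all groups. With only the bipolar groups compared, limma called all 4 (adjusted p = 4.34e-05 for Cabp2, 2.63e-04 for Ncald, 4.63e-04 for Vsnl1 and 9.11e-05 for Hpca), and voom weights called Cabp2 (0.0109) and Ncald (0.0355). That narrower fit also called Cabp1 lower at P13, at 2.29-fold less than at P7 (adjusted p = 0.00783). The shares of all genes called in these alternative fits are not given here. The amacrine sum in bipolars was 194 and 280 CPM at P7, 134 and 378 CPM at P13, and 530.3 and 653 CPM at P30. The sum of 6 Müller glia markers was 167 and 173 CPM at P7, 694 and 877 CPM at P13, and 3987 and 6163 CPM at P30. Their part in these age differences was not tested.

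The change over P7 to P30 was also compared between cell types. Set against rods and cones averaged, bipolars differed in Cabp2. This was the 1 member called (log2 difference 11.79 ± 2.20, limma, adjusted p = 0.00256), against 11.1% of all genes. Its bipolar libraries were higher at P30 than at P7, and the rod libraries lower. In rods against cones, Cabp5 was the 1 member called (6.74 ± 1.01, adjusted p = 8.48e-04), against 10.6% of all genes. Its mean was 1.13 CPM in rods at P30 and none at P7, while in cones it was 291 CPM at P30 and 211 CPM at P7. It was not called on the log2(CPM + 1) scale (0.66, adjusted p = 0.301) or with voom weights (6.21, 0.0510).

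Other genes of calcium signalling were read from 4 lists. Of 19 voltage-gated calcium channel and inositol trisphosphate receptor genes, 10 were called higher and 2 lower in bipolars than in rods at P30, and 10 higher and none lower in bipolars than in cones, where 37.7% and 30.4% of all genes were called in either direction. Their median log2 differences were 4.33 and 3.49, beside 0.07 and 0.14 for all genes tested. Cacna1f, the Cav1.4 subunit that CaBP4 binds, was 117 CPM in bipolars at P30, 348 CPM in rods and 222 CPM in cones, and was called lower in bipolars than in rods (-1.56 ± 0.18, limma, adjusted p = 6.02e-06). It rose in rods at P30 against P13 (1.18 ± 0.18, adjusted p = 5.70e-04). Cacna1d, the Cav1.3 subunit, was 19.4 CPM in bipolars at P30, against 0.451 CPM in rods and 0.0442 CPM in cones. Cacna2d3, an auxiliary subunit, was 1999 CPM in rod bipolars and 186 CPM in cone bipolars, a difference not called (adjusted p = 0.190), and 946 CPM in bipolars at P30.

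Of the 10 other genes of the neuronal calcium sensor family, 2 were called higher and 4 lower in bipolars than in rods at P30, and 4 higher and 4 lower than in cones, against the same 37.7% and 30.4% of all genes, with median log2 differences of 3.91 and 3.28. Rcvrn, the recoverin of photoreceptors, was 33.5 CPM in bipolars at P30, 1638 CPM in rods and 2045 CPM in cones, and Guca1b, an activator of photoreceptor guanylate cyclase, was 14.4 CPM in bipolars, 2273 CPM in rods and 392 CPM in cones. Both were called lower in bipolars than in rods (-5.59 ± 0.44 and -7.36 ± 0.49). Kcnip3, a channel-interacting sensor, was called higher, at 24.2 CPM in bipolars and no read in rods at P30. Of 10 measured EF-hand buffer and S100 genes, 3 were called higher and none lower in bipolars than in rods at P30, and 4 higher and none lower than in cones, with medians of 5.17 and 5.46. The count against rods is below the 37.7% of all genes, and that against cones above the 30.4%. The buffer Scgn was 23.0 CPM in rod bipolars and 585 CPM in cone bipolars (-4.64 ± 1.01, adjusted p = 0.0115). Of 5 calmodulin and calneuron genes, 3 were called higher and none lower in bipolars than in rods at P30 and 2 and none than in cones, beside 37.7% and 30.4% of all genes, with medians of 2.81 and 1.83.

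For each member, the genes whose 11 group means were most like its own were named by Pearson's r over the 11 groups, among 11435 genes with a mean log2 CPM of at least 3 in 1 group. The groups share 1 normalization, depth differs by cell type, and r is a description. For Cabp4 they were Aipl1 (r = 0.987), Rtbdn (0.986) and Pla2r1 (0.984), and for Cabp5 Rgs7 (0.990), Chd5 (0.984) and Asic4 (0.983). For Cabp2 they were Nudt10 (0.953), Csnk1g3 (0.948) and Gnai1 (0.938), and for Cabp1 Pak3 (0.986), Gpr85 (0.983) and Rgs16 (0.983). Ncald was most like Kcnip4 (0.978), itself a sensor of the same family, Tmem191c (0.971) and St6galnac6 (0.967). Vsnl1 was most like Cacng5 (0.985), Stac2 (0.979) and Cntn5 (0.976), Hpca like Adarb2 (0.982), Neto1 (0.981) and Dach2 (0.975), Calb1 like Fat3 (0.933) and G3bp2 (0.925), and Calb2 like Mgat4c (0.980), Pcdh10 (0.980) and Plxdc2 (0.971). Cabp7 had the lowest values, with Nt5c3b (0.926), Slc37a3 (0.920) and Naa60 (0.907). Among the members themselves, Calb2 and Vsnl1 were most alike (0.923), and Cabp4 ran opposite to Calb2 (-0.891) and Cabp1 (-0.875).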

How the data were processed

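Messenger RNA was measured in 22 libraries, 2 in each of 11 groups. Per the labels' protocols, RNA of sorted cells was isolated, amplified linearly and made into libraries with a kit that does not mark strand. The authors deposited log2 counts per Mread (log2 CPM) for 13812 genes. These Mreads are of scaled depth, which came out as 0.608 to 1.23 of the reads in genes of a library. STAR, edgeR and GRCm38/mm10 are named, without versions, per the submitters' processing notes, and the sources used here do not name the read counter, annotation or filter. Amplification acts before counting, so reads are not independent molecules, and limits and floors cover counting error only. The table's lowest value, -7.10, stands for no reads. All values (100%) came out as whole reads within 0.01 once depth was recovered, and 3 reads correspond to 0.0541 to 0.170 CPM in a library. Recovered totals were 14.4 to 54.4 Mreads (megareads).

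Gene IDs were matched to GRCm38 annotation (GENCODE M21), which named 13790. The other 22 held 0.089% of all reads and were not tested. Genes that reached a log2 CPM of 0 in each library of 1 or more groups were tested (13410, with 380 left out). Limma 3.58.1 in R 4.3.3 was fitted to the log2 CPM of all 22 libraries, 1 term per group, an intensity trend and 11 residual degrees of freedom, and p-values were adjusted by Benjamini-Hochberg over all genes tested. Genes were called at an adjusted p under 0.05 and an absolute log2 fold change of at least 1, in 18 comparisons. ± after a log2 difference is the standard error. Folds are ratios of mean CPM, and a fold against a group without reads is a lower bound that sets this group at 3 reads over its libraries. Where a group has no reads, the fitted log2 difference depends on the value given to no reads and is no bound. No fold is given against 1 to 3 reads. As an alternative chosen after seeing the data, voom weights were used in limma on the recovered reads. The members, gene lists and tests were chosen with earlier results of these data known. Every member is named. Genes outside the members are the 3 most alike over group means for each, and examples from the lists chosen after their values were seen; 1 of the genes most alike is not reported here. The scripts were tested on simulated data.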

Additional observations from a re-analysis of the deposited data

Results flagged for a closer look

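The change between P7 and P30 differed between cell types for 2 of the genes, by a test of the difference itself. Cabp2 changed by 11.79 ± 2.20 more on the log2 scale in bipolars than in the mean of rods and cones (SE; limma, adjusted p = 0.00256). Bipolars had 139.0 and 104 CPM at P30 and 9.96 and 6.39 CPM at P7, whereas rods had no read at P30 and 13.6 and 9.23 CPM at P7. The size of this value depends on the value given to libraries without reads, and the direction and the call held in each alternative run.

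Cabp5 changed by 6.74 ± 1.01 more in rods than in cones (limma, adjusted p = 8.48e-04). Rods had 1.63 and 0.632 CPM at P30 and no read at P7, and cones 376 and 205 CPM at P30 and 205 and 217 CPM at P7. On the CPM scale the level in rods at P30 was 257-fold below that in cones. The value was 0.66 on the log2(CPM + 1) scale (adjusted p = 0.301) and 6.21 with voom weights (0.0510). The ON-bipolar marker sum in rods was 7.38 and 2.70 CPM at P30 and 3.35 and 22.6 CPM at P7. The cone marker sum in rods was 125 and 90.7 CPM at P30 and 322 and 274 CPM at P7. The part of RNA from other cells in the Cabp5 level of rods was not tested.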

How the results depend on the processing

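Of 630 values of the 52 called member results under the alternatives, 536 kept the call, 94 lost it and none changed direction, and 22 results kept the call in each alternative run. Those were all Cabp4 differences of bipolars from rods and cones, all Cabp5 differences of rods from bipolars and cones, 3 results of Cabp1, 2 each of Cabp2 and Ncald, and 1 each of Cabp7, Vsnl1 and Calb1. An alternative in which the filter left out the gene is counted neither as kept nor as lost. With only the groups compared this was so for Cabp1 in rods against cones at P13 and in rods at P13 against P7. It was also so for Cabp5 and Ncald in rods at P30 against P13, and for Cabp7 in bipolars against rods at P7 and P13. Plain read totals moved the median of all genes by up to 0.73 on the log2 scale (bipolars against cones at P30).

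The number of members called was 2 with plain totals, beside 1, for rods against cones at P30. With only the groups compared it was 4, beside 7, for bipolars against rods at P7, and 5, beside 8, for bipolars against cones at P30. For bipolars against cones at P7 it was 3, and 6 on the log2(CPM + 1) scale, 6 with only the groups compared, 7 with array weights and 5 with voom weights. At P13 it was 4, and 8 on the log2(CPM + 1) scale. For rod bipolars against cone bipolars it was 0, and 3 on the log2(CPM + 1) scale, 4 with only these groups and 4 with voom weights. In rods it was 2 for P13 against P7, and 1 on the log2(CPM + 1) scale, 1 with only the groups compared and 0 with array weights; for P30 against P13 it was 3, and 0 with only the groups compared, where the filter left out Cabp5 and Ncald. In cones it was 0 for P30 against P13, and 1 with plain totals and 2 on the log2(CPM + 1) scale. In bipolars it was 1 for P13 against P7, and 5 on the log2(CPM + 1) scale, 0 without the trend, 6 with only the groups compared, 4 with array weights and 3 with voom weights. For P30 against P13 it was 1, and 0 with plain totals, on the log2(CPM + 1) scale, without the trend and with voom weights, and 2 with array weights. For the P7 to P30 change in rods against cones it was 1, and 3 with plain totals and 2 on the log2(CPM + 1) scale or with only the groups compared; for bipolars against rods and cones it was 1, and 4 and 2 under the last 2 of these. The causes were not tested, and the share of all genes called under each alternative is not given here.

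With 1 library left out in turn, the number called ranged from 2 to 4 (P7), was 4 (P13) and ranged from 1 to 2 (P30) for rods against cones. It was 3 to 8, 5 to 8 and 4 to 5 for bipolars against rods, and 1 to 3, 1 to 2 and 5 to 7 for bipolars against cones. It was 0 for rod bipolars against cone bipolars, 2 and 2 to 3 for the steps in rods, 0 and 0 to 2 in cones, 0 to 1 and 0 to 1 in bipolars, and 1 to 3 and 1 to 2 for the changes between cell types. The library left alone is then assumed to vary like the other groups. The share of all genes called with each library left out is not given here, so these ranges have no background beside them.

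Over all genes tested, no strong likeness of libraries with the same replicate number was seen. Across 55 pairs of groups the deviations correlated at -0.142 to 0.193, with 5 over 0.1. Some of the genes described here did share an order. Cabp2 was higher in replicate 1 in every group with reads of it, and the amacrine sum in replicate 2 in every group but cones at P7. Weak correlations cannot show that such libraries were collected apart. The fit with the replicate block lost the call of Calb2 in bipolars against rods at P13 (adjusted p = 0.0555) and gained Ncald at P7 (0.0455) and Calb1 at P30 (0.0486) in bipolars against rods. Depth limits the low members: 3 reads are 0.0541 to 0.170 CPM in a library, and Cabp7 in bipolars and Cabp5 in rods lie near or below 1 CPM.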
